A study of Mus musculus with 3 samples.

Results

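The promoters of Fam204a, Ilf2 and Depdc1b carried 3 of the 5 strongest NF-Y peaks in the embryonic mouse cortex, at ranks 2, 4 and 5 of 733 peaks by fold enrichment. The 3 genes were selected on that fold enrichment, so their height is a description and was not tested. What the selection did not use is the arrangement of CCAAT boxes under each peak, the neighbouring transcription start sites (TSSs) and the histone mark around them. All 3 summits lay within 34 bp of a TSS and all 3 peaks met an H3K4me3 peak, as did 88.0% of all NF-Y peaks, whose summits lay at a median of 53 bp upstream where a TSS was within 1 kb. The promoters of Fam204a, Ilf2 and Depdc1b held different numbers of CCAAT boxes within 100 bp of the summit, 2, 3 and 1.

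The chromatin came from cortices of mouse embryos at E13.5, and the labels give no strain, genotype or treatment and no number of pooled embryos. One library was made from input chromatin without antibody, 1 by chromatin immunoprecipitation with an antibody against NF-YC (NF-Y-ChIP) and 1 with an antibody against histone H3 trimethylated at lysine 4 (H3K4me3-ChIP). Peak lists of the 2 antibodies were analysed, with 733 NF-Y-ChIP peaks and 18816 H3K4me3-ChIP peaks. Each antibody has 1 library, so there is no replicate error, no test was run, and the read depth behind a value is unknown. As a check of the tissue, the 5 forebrain genes Emx1, Sox2, Pax6, Eomes and Neurod6, chosen after the data were seen, were all marked by H3K4me3-ChIP at 1 kb or less from a start, with fold enrichments between 4.61 and 41.0. Of all 21938 coding genes 62.8% were so marked, so the count says little of the tissue.

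NF-Y is a transcription factor with an A, a B and a C subunit, and it binds the pentamer CCAAT in either orientation, mostly a short way upstream of the TSS. The B and C subunits form a dimer with a histone-like fold, and the A subunit contributes the contact with the CCAAT letters. H3K4me3 marks the nucleosomes at and just downstream of active promoters. Ilf2 encodes NF45, a subunit of a complex that binds double-stranded RNA. Depdc1b encodes a protein with a DEP domain and a domain like that of GTPase-activating proteins and is linked to cell division and adhesion. Fam204a is little characterised.

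The sequences below are the 170 bases upstream of the first annotated start of each gene, read 5′ to 3′ on the strand of the gene from the GRCm38 reference. They are shown because they hold all CCAAT boxes of the 3 peaks, which stand in capitals, as CCAAT where the box runs with the gene and as ATTGG where it runs against it.
Fam204a, chr19:60226702-60226871, minus strand: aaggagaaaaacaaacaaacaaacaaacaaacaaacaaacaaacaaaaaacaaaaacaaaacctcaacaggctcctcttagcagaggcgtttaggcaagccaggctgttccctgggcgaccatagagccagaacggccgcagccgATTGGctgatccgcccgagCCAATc
Ilf2, chr3:90475956-90476125, plus strand: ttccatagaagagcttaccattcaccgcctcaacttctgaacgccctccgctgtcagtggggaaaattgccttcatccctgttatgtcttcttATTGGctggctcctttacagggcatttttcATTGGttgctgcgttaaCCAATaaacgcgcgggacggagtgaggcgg
Depdc1b, chr13:108316162-108316331, plus strand: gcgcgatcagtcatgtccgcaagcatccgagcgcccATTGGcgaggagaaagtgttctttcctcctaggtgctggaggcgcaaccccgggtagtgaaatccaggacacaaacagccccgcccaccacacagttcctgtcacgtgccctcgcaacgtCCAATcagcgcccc

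Fam204a had a pair of boxes that face away from each other, the upstream ATTGG and the downstream CCAAT, with their starts 19 bp apart. Only 1 base lay between the downstream box and the first annotated start. Ilf2 had 3 boxes, of which the first and the second ran against the gene and the third with it, with spacings of 30 and 17 bp and 47 bp from the first start to the last. Depdc1b had a CCAAT just upstream of its start and an ATTGG much farther upstream. That second box lay 108 bp from the summit, so it falls inside the called peak and outside the window of 100 bp used for counting.

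For comparison, 3 promoters from the middle of the NF-Y list are shown in the same way. They are the promoters among the 5 peaks at exactly the median fold enrichment of 6.75, picked by a rule after the values were seen. Sim1, a transcription factor of hypothalamic neurons, had 3 boxes, and Ypel2 and Dgcr2 had 1 each within 100 bp of the summit.
Sim1, chr10:50894584-50894753, plus strand: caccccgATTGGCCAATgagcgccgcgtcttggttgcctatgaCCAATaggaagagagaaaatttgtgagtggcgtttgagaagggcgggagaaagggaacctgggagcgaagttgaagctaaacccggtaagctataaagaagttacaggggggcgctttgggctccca
Ypel2, chr11:86993708-86993877, minus strand: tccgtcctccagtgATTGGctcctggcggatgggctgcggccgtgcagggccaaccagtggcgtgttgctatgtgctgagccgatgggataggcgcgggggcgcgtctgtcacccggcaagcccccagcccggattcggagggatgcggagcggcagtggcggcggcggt
Dgcr2, chr16:17891694-17891863, minus strand: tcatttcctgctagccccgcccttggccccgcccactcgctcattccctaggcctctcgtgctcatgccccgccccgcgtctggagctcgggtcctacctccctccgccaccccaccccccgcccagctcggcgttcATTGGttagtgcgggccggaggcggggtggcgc

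The Sim1 sequence holds near its 5′ end a box against the gene that directly abuts a box with the gene, a spacing of 5 bp, and has another box 31 bp on. It therefore has as many boxes near its summit as Ilf2, with a fold enrichment of 6.75 against 34.2.

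**Figure D1:**
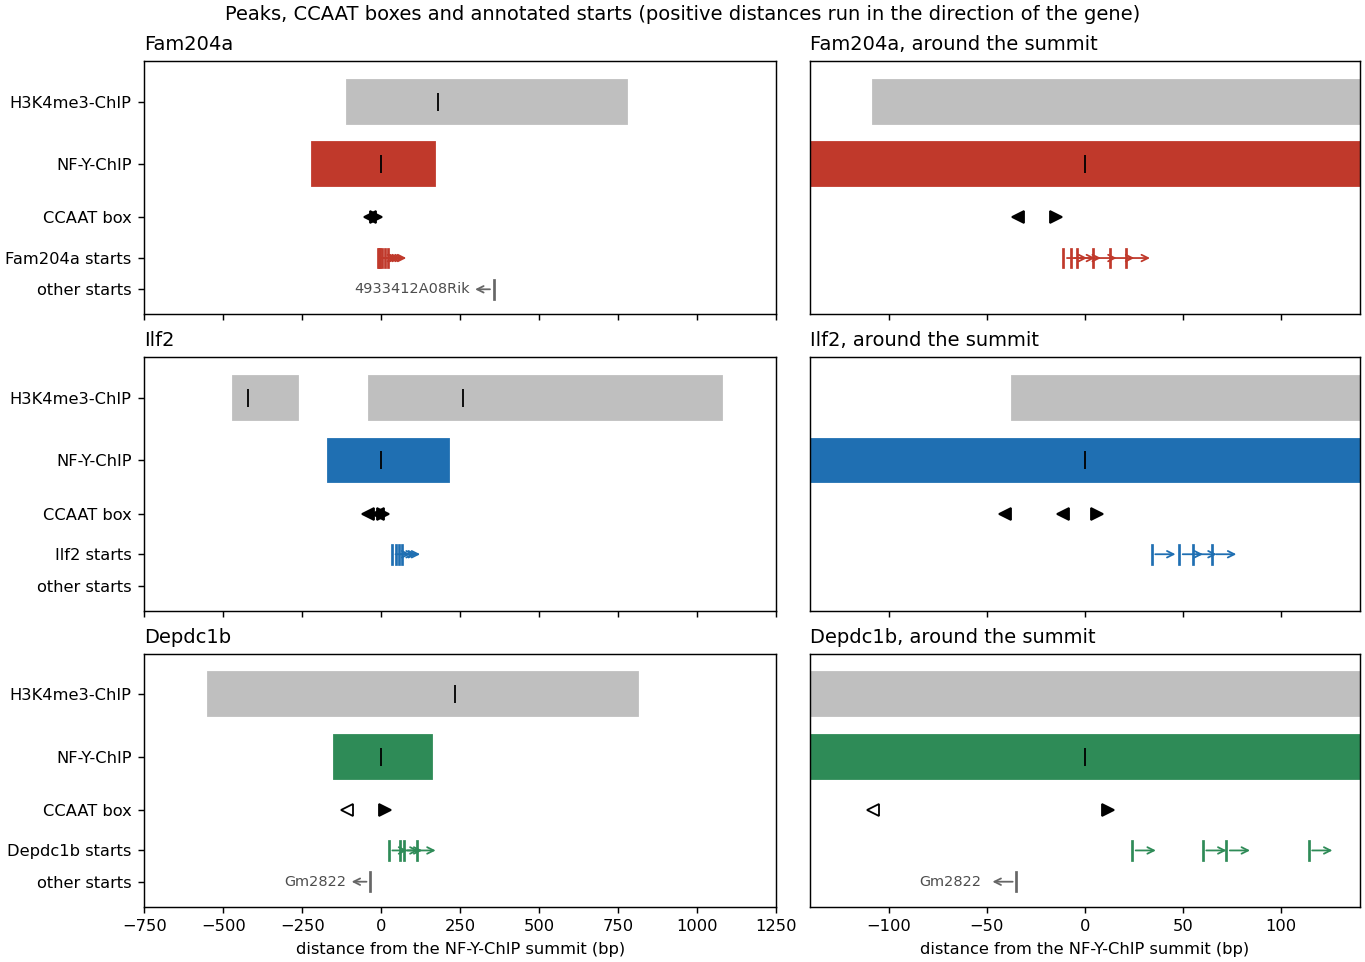
Position (bp) of the H3K4me3-ChIP peaks (grey), the NF-Y-ChIP peak (coloured), the CCAAT boxes (triangles pointing in the direction of CCAAT, open where the box lies over 100 bp from the summit) and the annotated starts (bars with arrows), measured from the NF-Y-ChIP summit, for the whole promoter on the left and within 140 bp on the right. Black ticks are summits. The boxes and starts of each gene crowd around the NF-Y-ChIP summit, and the grey peak extends mainly downstream.

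The Fam204a peak lay at chr19:60226520-60226910 on GRCm38, over the start of the gene (ENSMUSG00000057858.8, minus strand). Its fold enrichment, the signal at the summit over the local background as the peak caller gives it, was 43.7, which is 6.47 times the median of the list, with a −log10 p of 143. The summit at 60226690 lay 4 bp upstream of the nearest start, that of the coding transcript Fam204a-206. Gene starts are spread here, with 7 transcripts beginning at 6 positions within 32 bp, and the summit lay between 21 bp upstream and 11 bp downstream of them. Measured from the 5′ end of the gene, the sign thus turns, to 11 bp downstream.

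The Fam204a boxes were centred 34 and 15 bp upstream of the summit and 38 and 19 bp upstream of the coding start. Both lay outside every Fam204a transcript. Both had all 4 scored flanking bases of the extended NF-Y consensus, which are a pair of purines before CCAAT and C or G followed by a purine after it. Read along CCAAT, they were agCCAATcg at the upstream box and agCCAATca at the downstream box. Both boxes also lay in an exon of the pseudogene 4933412A08Rik, which runs on the opposite strand from a start 356 bp downstream of the summit.

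The Ilf2 peak lay at chr3:90475923-90476307 over the start of the gene (ENSMUSG00000001016.12, plus strand), with a fold enrichment of 34.2, a −log10 p of 93.8 and 5.07 times the median fold. The summit at 90476092 lay 34 bp upstream of the first annotated start, which belongs to a transcript with a retained intron, and 55 bp upstream of the only protein-coding start. No other gene had a start within 1 kb. The boxes were centred 41 and 11 bp upstream and 6 bp downstream of the summit, so the summit fell between the second and the third. From the first start they lay 75, 45 and 28 bp upstream.

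The flanks of the Ilf2 boxes differed. The middle box, aaCCAATga, had all 4 flanking bases of the extended consensus. The first, agCCAATaa, and the third, aaCCAATaa, each had 3, since an A follows the pentamer. With boxes of the full extended consensus only, the count at Ilf2 was 1 instead of 3.

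The Depdc1b peak lay at chr13:108316158-108316469 over the start of the gene (ENSMUSG00000021697.12, plus strand), with a fold enrichment of 33.7, a −log10 p of 95 and 4.99 times the median fold. The summit at 108316308 lay 24 bp upstream of the nearest start, which is protein-coding, and the 4 starts nearby spanned 90 bp. The noncoding gene Gm2822 starts on the other strand 35 bp to the other side of the summit, so the 2 genes diverge with 59 bp between their 5′ ends. The summit and the near CCAAT fell between them.

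That CCAAT was centred 12 bp downstream of the summit and 12 bp upstream of the Depdc1b start, with the flanks gtCCAATca, of which 3 of 4 bases are in the extended consensus. The far box, cgCCAATgg, also had 3 and lay in the first exon of Gm2822. Depdc1b therefore had 1 box within 100 bp of the summit, 2 within 150 bp or in the whole peak, and 0 of the full extended consensus.

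The neighbours in rank show where the selection fell. Hnrnpab, which encodes an RNA-binding protein, had rank 1 at 53.1-fold, and Iars, an aminoacyl-tRNA synthetase gene, had rank 3 at 39.1-fold. Just below Depdc1b, at 33.7-fold, Cep41 (a centrosomal protein gene) and Nudcd2 followed at ranks 6 and 7, both with 28.3-fold. Hnrnpab, Iars and Cep41 had 2 boxes each, spaced 43, 46 and 23 bp, and Nudcd2 had 3, spaced 33 and 43 bp. By −log10 p Fam204a kept rank 2, and Ilf2 and Depdc1b traded places.

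**Figure D2:**
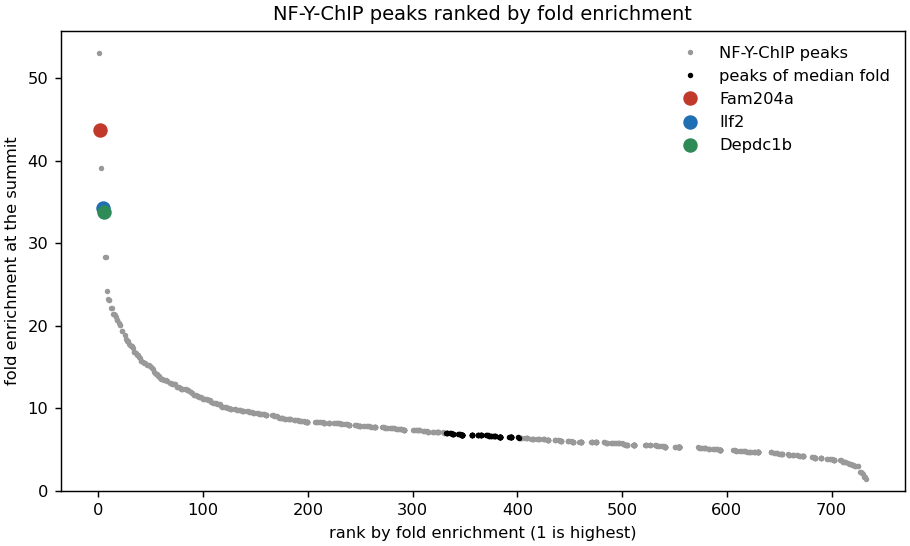
Fold enrichment at the summit (vertical axis) of the 733 NF-Y-ChIP peaks in order of rank (horizontal axis), with the peaks of median fold in black. Fam204a, Ilf2 and Depdc1b, at 43.7, 34.2 and 33.7, stand above the black peaks, which run from 6.43 to 7.0.

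The reference for the following comparisons is the 71 NF-Y-ChIP peaks between percentiles 45 and 55 of fold enrichment, with folds from 6.43 to 7.0 and ranks 332 to 402. Of these, 93.0% had at least 1 box within 100 bp of the summit, 57.7% (Wilson 95% interval 46.2 to 68.5) had 2 or more, and 18.3% (11.0 to 28.8) had 3 or more. Among all 733 peaks the shares with 2 or more and 3 or more were 64.3% and 26.9%. Of the 3 strong promoters, 2 had 2 or more boxes and 1 had 3 or more. At this window the counts lie near the background. Within 50 bp of the summit Fam204a still had 2 boxes, Ilf2 3 and Depdc1b 1, whereas the shares with 2 or more and 3 or more fell to 36.6% and 2.82% at median fold and to 46.8% and 8.87% of all peaks. Within that narrow window 3 or more boxes were thus found in 65 of all 733 peaks, Ilf2 included. The intervals cover the counting of peaks only.

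Over the whole list, median fold was 5.4 in the 52 peaks without a box and 7.41 in the 52 with 4 boxes, with smaller differences between the numbers found at the strong promoters. It was 6.49 (quartiles 5.27 and 8.26) in the 210 peaks with 1 box, 6.91 (5.56 and 9.3) in the 274 with 2 and 6.75 (5.42 and 8.69) in the 130 with 3. Depdc1b ranked 1 among the peaks with 1 box, Ilf2 ranked 1 among those with 3, and Fam204a ranked 2 among those with 2. In each class the strong promoter thus lay far above the upper quartile, as its selection implies.

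**Figure D3:**
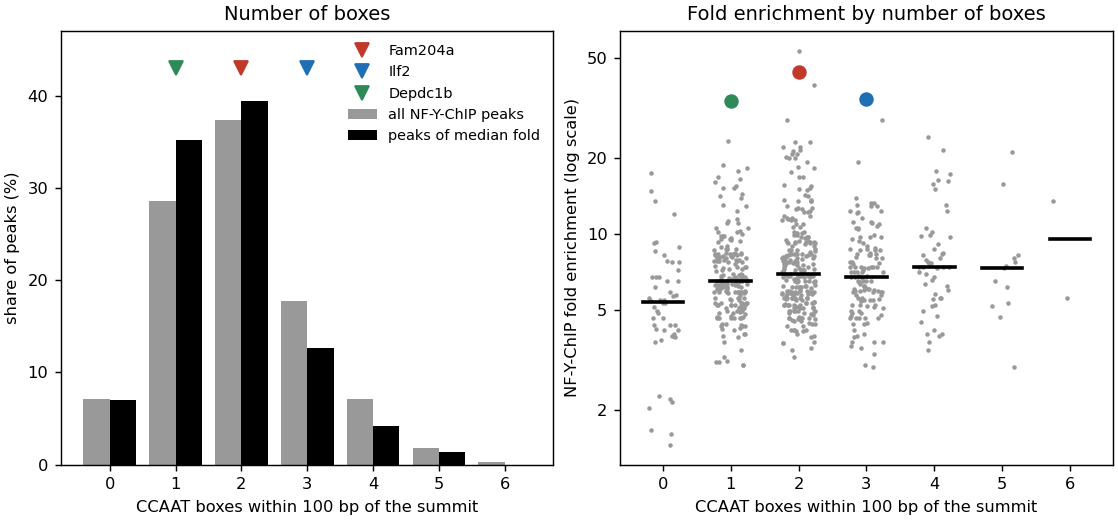
Left, share of peaks (%) by number of CCAAT boxes within 100 bp of the summit, in all NF-Y-ChIP peaks (grey) and in the peaks of median fold (black), with triangles at the numbers of the 3 promoters. Right, NF-Y-ChIP fold enrichment (log axis) of each peak by number of boxes, shifted sideways at random within a class, with black lines at the medians, which lie at 6.49, 6.91 and 6.75 for 1, 2 and 3 boxes.

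Flanking bases did not mark the 3 promoters as a group either. At least 2 boxes of the full extended consensus were present in 19.7% of the peaks of median fold and 22.9% of all peaks. At least 1 was present in 71.8% and 71.1%. Of the strong promoters Fam204a had 2, Ilf2 1 and Depdc1b 0, so Depdc1b lacked what most peaks had.

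Spacing was measured between the starts of neighbouring boxes. Over all peaks there were 752 such pairs, with a median of 37 bp (quartiles 30 and 51) and a commonest value of 31 bp, in 44 pairs. The 30 bp of the first Ilf2 pair is 1 bp from it and was shared by 33 pairs. The other distances at the strong promoters were short among pairs of every orientation. The 17 bp of the second Ilf2 pair was above 5.05% of all pairs and occurred 14 times. The 19 bp of Fam204a was above 8.24% and occurred 6 times. In both pairs the boxes face away from each other, as in most pairs with 17 bp. No share was taken within that orientation, so these distances need not be short for it.

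In the peaks of median fold, 59 pairs had a median of 35 bp, and 3 pairs had 17 bp, 2 had 30 bp and 1 had 19 bp. Each distance found at a strong promoter was therefore also found there, but the 19 bp pair at median fold had both boxes on the same strand, unlike that of Fam204a. The boxes of Fam204a and the last 2 of Ilf2 lay on opposite strands, whereas neighbouring boxes ran the same way in 64.2% of all pairs and 50.8% of those at median fold.

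**Figure D4:**
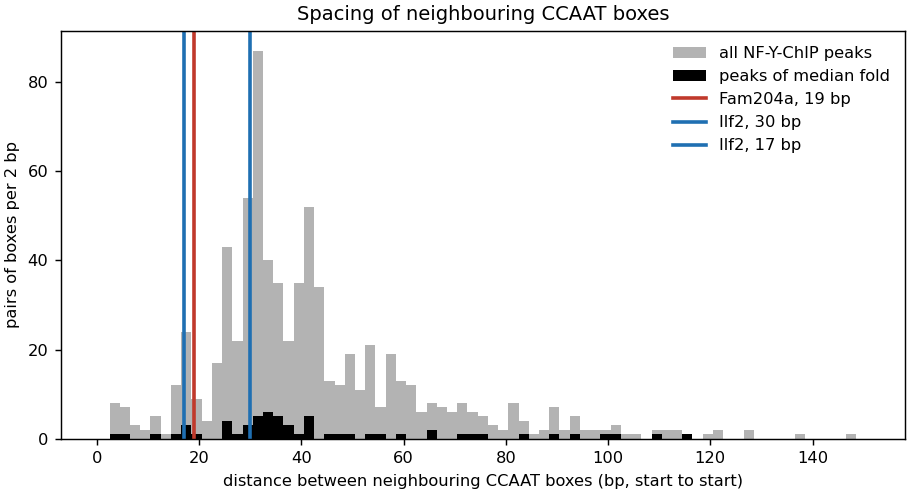
Distance between neighbouring CCAAT boxes (bp, start to start) in all NF-Y-ChIP peaks (grey) and in peaks of median fold (black), as pairs per 2 bp. Coloured lines mark the 19 bp of Fam204a and the 30 and 17 bp of Ilf2, of which 17 and 19 bp lie left of the main mass around the median of 37 bp.

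Peaks with the arrangement closest to that of each strong promoter were found by the same number and order of boxes, read on either strand, and the smallest summed difference in spacing. For Fam204a these were Pdia4, a protein disulfide isomerase gene, with the same 19 bp at 11.6-fold, Pet100 with 18 bp at 13.6-fold and Foxk1 with 18 bp at 5.57-fold, out of 61 peaks with the same order. For Ilf2, out of 23, they were Gt(ROSA)26Sor with 30 and 16 bp at 5.75-fold, in the same direction as at Ilf2, and Kctd7 with 17 and 31 bp at 5.16-fold and Rps6ka5 with 18 and 33 bp at 13.9-fold, both as the mirror image. These 6 peaks, mirror images included, had ranks from 58 to 577, and the peak closest to Ilf2 in its own direction had rank 497. For Depdc1b the measure cannot rank the other 209 peaks with a single box, and the 3 of highest fold among them were Med13 at 23.3, AC113961.1 at 18.8 and Spcs2 at 18.2.

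Summits and boxes at the strong promoters lay close to the TSS. The summit of the peaks of median fold within 1 kb of a TSS lay at a median of 54 bp upstream (quartiles 100 and 21 bp upstream), and the strong promoters had 4, 34 and 24 bp upstream for Fam204a, Ilf2 and Depdc1b. The box nearest to the summit lay 19, 28 and 12 bp upstream of the start that is nearest to the summit. The median was 58.5 bp upstream (quartiles at -97.25 and -29 bp) at median fold and 54 bp (quartiles 102 and 23) over all peaks. The boxes of Fam204a and Depdc1b were thus closer to the start than the nearer quartile of either set. That of Ilf2 was closer than the nearer quartile at median fold by 1 bp, and from the only protein-coding start it lay 49 bp upstream, within the quartiles. The Fam204a summit was also closer than the nearer quartile at median fold, and the Ilf2 and Depdc1b summits fell within the quartiles. Starts on both strands within 1 kb were present at Fam204a and Depdc1b, compared with 26.8% of the peaks at median fold and 25.1% of all peaks.

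The NF-Y-ChIP peaks themselves were wide, 391 bp at Fam204a, 385 bp at Ilf2 and 312 bp at Depdc1b, against a median of 222 bp (quartiles 193 and 242.5) at median fold. Width and fold come from the same library, so width is no independent measure.

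All 3 peaks overlapped an H3K4me3-ChIP peak, as did 88.0% of all NF-Y-ChIP peaks and 91.5% (82.8 to 96.1) of those at median fold. The level of the mark differed between them. At Ilf2 the H3K4me3-ChIP fold enrichment was 78.7, rank 136 of 18816. At Fam204a it was 72.9, rank 414. At Depdc1b it was 36.4, rank 7082.

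At the peaks of median fold with an overlap (65) the median H3K4me3-ChIP fold enrichment was 43.2, with quartiles of 29.38 and 55.49. Ilf2 and Fam204a were above 98.5% and 96.9% of them, and Depdc1b was above 38.5%, within the quartiles. A strong NF-Y peak was therefore found on a promoter with a middling level of the mark as well as on 2 with a high one. Of the other 2 peaks in the first 5, Hnrnpab had 72.6 and Iars 72.9, and of the next 2 Cep41 had 33.9 and Nudcd2 62.3.

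The H3K4me3-ChIP peak at Fam204a, chr19:60225911-60226798, was 888 bp wide. Its upstream edge lay 108 bp from the NF-Y-ChIP summit and its downstream edge 779 bp, so the mark covered 71.4% of the NF-Y peak, both boxes included. At Ilf2 the peak, chr3:90476055-90477172, was 1118 bp wide and reached 37 bp upstream and 1080 bp downstream of the NF-Y-ChIP summit. It covered 65.7% of the NF-Y peak and 2 of the 3 boxes, and the first ATTGG, which ended at 90476053, lay just outside its edge. The Depdc1b peak, chr13:108315761-108317122, was 1362 bp wide and held the whole NF-Y peak, with 547 bp upstream of the summit, across the start of Gm2822, and 814 bp downstream. Of all NF-Y-ChIP peaks 68.9% were wholly covered, and the lower quartile of the covered share was 72.97%, just above the values of Fam204a and Ilf2.

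At median fold the H3K4me3-ChIP peak reached a median of 507 bp upstream (quartiles 289 and 767) and 980 bp downstream of the NF-Y-ChIP summit, and 1558 bp in all. Among all NF-Y-ChIP peaks with an overlap, the upstream reach at Ilf2 was above 9.77% and that at Fam204a above 16.6%, while that at Depdc1b was above 53.0%. The widths of 888 and 1118 bp at Fam204a and Ilf2 were below the lower quartile of 1150 bp. Over the whole H3K4me3-ChIP list these widths were not small, above 38.9% and 50.9% of its peaks. At both promoters the mark lay mostly on the downstream side of the NF-Y summit. The H3K4me3-ChIP summits lay 180, 259 and 234 bp downstream of the NF-Y-ChIP summits of Fam204a, Ilf2 and Depdc1b, within the quartiles of 109 and 349 bp at median fold.

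**Figure D5:**
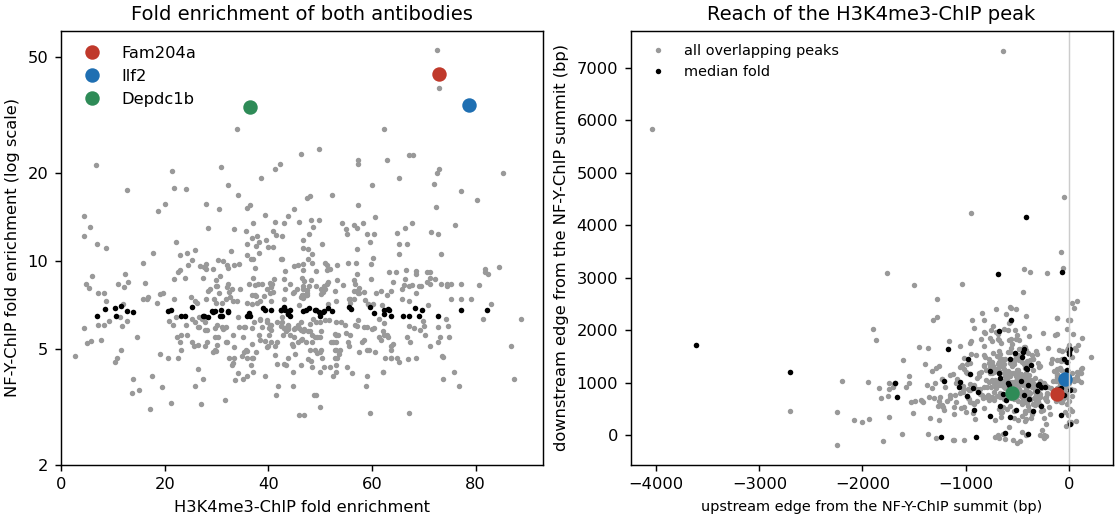
Left, NF-Y-ChIP fold enrichment (log axis) against H3K4me3-ChIP fold enrichment of the overlapping peak, for all NF-Y-ChIP peaks (grey) and those of median fold (black). Right, downstream against upstream edge (bp) of that H3K4me3-ChIP peak from the NF-Y-ChIP summit. Ilf2 and Fam204a, at 37 and 108 bp upstream, lie near 0 on the horizontal axis and Depdc1b lies at 547 bp.

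Ilf2 had a second H3K4me3-ChIP peak on its other side, at chr3:90475624-90475829, 206 bp wide and with a fold enrichment of 4.64, which ended 93 bp before the NF-Y peak began. At least 2 H3K4me3-ChIP peaks within 1 kb of the summit were found at 22.5% of the peaks at median fold and 15.3% of all NF-Y-ChIP peaks. Fam204a and Depdc1b had 1. Within 50 kb Ilf2 had 8 H3K4me3-ChIP peaks, against 1 each at Fam204a and Depdc1b. None of the 3 genes held another NF-Y-ChIP peak, and the nearest lay 183 kb from Ilf2 (Gatad2b, 6.57-fold), 158 kb from Depdc1b (Ndufaf2, 11.4-fold) and 4670 kb from Fam204a (4930552P12Rik, 5.34-fold). Counts within 50 kb and nearest distances are not given for other NF-Y-ChIP peaks, so these values have no reference here.

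Base composition was mixed. Within 100 bp of the summit GC content was 64.2% at Fam204a, 55.2% at Ilf2 and 63.7% at Depdc1b, against a median of 63.68% (quartiles 57.96 and 69.15) at median fold. The ratio of observed to expected CpG was 1.02, 0.914 and 0.951, all above the median of 0.7627 at median fold. The upper quartile was 0.9051 there and 0.9371 over all peaks, and Fam204a and Depdc1b were above both, while Ilf2 was above the first alone.

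Letters of other promoter motifs were searched on both strands within 100 bp of the summits. The GC box (GGGCGG), bound by Sp-family factors, was present at Fam204a and Depdc1b, centred 27 and 51 bp upstream of the coding start, and in 60.6% of the peaks of median fold and 58.1% of all peaks. The CHR, the cell cycle homology region (TTTGAA or TTCGAA), bound by the DREAM and MuvB complexes at cell cycle promoters, was present at Depdc1b 20 bp downstream of the start, and in 11.3% at median fold, 10.2% of all NF-Y-ChIP peaks and 7.36% of the 12344 H3K4me3-marked promoters of coding genes without an NF-Y-ChIP summit, and in 10.6% of all 21938 promoters of coding genes. The TATA box (TATAAA), E2F (TTTCCCGC, TTTGGCGC or TTTCGCGC), CRE (TGACGTCA) and ETS (CCGGAAGT) letters were found at none of the 3, and in 4.37%, 3.68%, 2.86% and 2.73% of all NF-Y-ChIP peaks. At median fold the shares were 1.41%, 2.82%, 5.63% and 4.23%, each of 4 peaks or fewer.

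After the sequences had been read, 2 more motifs were added. The E-box CACGTG was present at Depdc1b 5 bp upstream of the summit, between its far and its near box, and in 11.3% of the peaks at median fold and 13.2% of all peaks. The YY1 core AAGATGGC was present at Fam204a 14 bp downstream of the coding start, and in 4.23% and 3.55%. Of these 8 motifs Ilf2 had none. No motif searched overlapped a CCAAT box at the 3 promoters, and a match is only a match of letters.

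Genes related to Depdc1b were then looked up, against a background of 5.03%, the share of H3K4me3-marked coding genes whose start had an NF-Y-ChIP summit at 1 kb or less (692 of 13767). Among 12 genes of DEP domain proteins and GTPase regulators and other genes of cell division, 5 had an NF-Y-ChIP peak. Beside Depdc1b these were its paralogue Depdc1a with 7.88-fold and 1 box, Ect2, a guanine nucleotide exchange factor of cytokinesis, with 5.5-fold and 3 boxes, Racgap1, its partner, with 6.18-fold and 1 box, and Cit, a midbody kinase, with 16.7-fold and 2 boxes. The other 7, Depdc5, Depdc7, Arhgap11a, Prc1, Kif23, Anln and Rhoa, had no NF-Y-ChIP peak. All 12 had an H3K4me3-ChIP peak, from 28.3-fold at Depdc1a to 67.4-fold at Rhoa, where 62.8% of all coding genes had one. The list holds Depdc1b, which was chosen for its peak. Without it the count was 4 of 11, and a list of this size was not tested.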

How the data were processed

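Mouse cortices at E13.5 gave 3 libraries (input, NF-Y-ChIP, H3K4me3-ChIP), and 2 peak lists were used. After trimming with Trimmomatic, the authors mapped the reads to mm10 (GRCm38) with Bowtie 2 (2.2.8 in the submitters' processing notes). Peaks came from MACS2 (2.1.2), with a threshold of 0.001 on p in the NF-Y list and of 0.05 on q in the H3K4me3 list. The study describes the input as the negative control of the ChIP. Whether MACS2 was run with it is not given in the sources used here. The deposited fold enrichment is a ratio of summit signal to local background, the deposited −log10 values are those of the p-value and q-value, and the deposited display score follows the p-value in all 733 NF-Y-ChIP peaks and the q-value in all 18816 H3K4me3-ChIP peaks, by which the lists were told apart. The deposited starts, ends and summit offsets are positions on GRCm38, given here 1-based.

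CCAAT and ATTGG were counted within 100 bp of each summit in the GRCm38 RefSeq sequence, starts were taken from GENCODE M21 (negative is upstream), and overlap needed 1 bp, with shares that hold for the lists as used here. Peaks of median fold lay between percentiles 45 and 55. Promoter windows of coding genes were 201 bp wide, centred 53 bp upstream of the start, the median NF-Y position. Named genes followed a rule: the 3 genes, genes starting within 5 kb, the other peaks of ranks 1 to 7, the 3 peaks most alike in boxes, and genes related to Depdc1b. The median-fold examples, the forebrain genes and the genes at the nearest other NF-Y-ChIP peaks are outside this rule and were chosen after their values were seen. A list of genes related to Ilf2 is not reported here. Genes, lists and comparisons were chosen with earlier results of these data known. With 1 library per antibody there are no replicates and no p-values. Read depth is unknown, intervals are Wilson 95% intervals over peaks, and functions were tested on simulated data. Alternatives covered the motif window, the consensus, the set of starts, the ranking, the overlap rule and the reference peaks. Sequences were read with pysam 0.24.0 and tables with pandas 2.3.3 and NumPy 2.4.6 in Python 3.11.15, intervals came from SciPy 1.17.1, and plots from matplotlib 3.10.9.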

Additional observations from a re-analysis of the deposited data

How the results depend on the processing

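Of 43 alternative values for 16 results, 33 were the same, 9 moved and 1 changed sign. The sign change was at Fam204a, whose summit lay 11 bp downstream when only the 5′ ends of genes were used, in place of 4 bp upstream. The distance at Ilf2 became -55 bp with protein-coding transcripts. With the extended consensus only, Ilf2 had 1 box and Depdc1b 0, and with 150 bp to each side or the whole peak Depdc1b had 2. The share of peaks of median fold with 3 or more boxes was 2.82% within 50 bp and 31.0% within 150 bp, and that with 2 or more was 36.6% within 50 bp, so these shares scale with the window. With percentiles 40 to 60 as the reference the share with 3 or more was 27.5%, inside the interval of the 18.3% and near the 26.9% of all peaks. The share of these peaks that overlap an H3K4me3-ChIP peak was 96.8% among those within 1 kb of a TSS. Ranks, H3K4me3-ChIP fold enrichments and the median of that fold stayed within the limits set for a change in all alternatives run for them. No paired analysis was possible because each antibody has 1 library and no test was run. The lists limit what can be said. A peak below the authors' threshold is not listed, depth is unknown, and the position of a box relative to a summit is no finer than the summit itself.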

Other observations

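CCAAT boxes were also common where no NF-Y-ChIP peak was listed. Of the 12344 H3K4me3-marked promoters of coding genes without an NF-Y-ChIP summit within 1 kb, 28.6% had at least 1 box in a window reaching 100 bp to each side of the place most typical of NF-Y summits, 8.13% had 2 or more and 1.64% (202 promoters) had 3 or more, the number at Ilf2. Among the 629 promoters with an NF-Y-ChIP summit the shares were 80.0%, 56.1% and 22.6%. These promoter counts were made apart from the gene counts given above, 13767 marked genes and 692 with a summit. The totals of promoters and genes therefore do not match. At least a single box, the number near the Depdc1b summit, was thus present at 3525 marked promoters without a listed peak.

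The E-box CACGTG beside the Depdc1b box was followed up in all peaks with 1 box, Depdc1b included. It was present in 45 of 210 (21.4%), whose median fold enrichment was 7.17 (quartiles 5.92 and 9.25), against 6.33 (5.25 and 8.02) in the 165 without it. The quartiles of both groups overlap. Over all peaks, 97 had the E-box, with a median of 6.64, and 636 did not, with a median of 6.75, so the order of the medians was the opposite. The motif was chosen after the Depdc1b sequence had been read, Depdc1b is among the 45, and the difference was not tested.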
